A study of Mus musculus with 17 samples.

Results

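The transforming growth factor beta (TGF-β) ligands Tgfb1, Tgfb2 and Tgfb3, the latent TGF-β binding proteins Ltbp1, Ltbp2, Ltbp3 and Ltbp4, and Lrrc32, which encodes GARP, were examined in single cells of mouse skin and kidney. These 8 genes were taken by their Ensembl identifiers from the 30406 genes listed in all 17 libraries. Each level below is in CPM, the unique molecular identifiers (UMIs) of a gene in counts per 1000000 UMIs of all cells of one class in one library. All cells came from mice carrying PDGFRb-Cre and the Z/EG reporter, in which Cre switches on green fluorescent protein (GFP), and GFP+ cells were sorted. The labels give an age of 8 weeks, and the methods of the study say that mice entered experiments at that age. SARATg mice also carried human ZFYVE9 cDNA, which encodes Smad anchor for receptor activation (SARA), behind a CAG promoter and a lox-stop-lox cassette at Rosa26. SARAWT mice lacked it. In skin, 3 SARAWT and 1 SARATg libraries followed subcutaneous PBS, and the same numbers followed bleomycin at 20 mg/kg, given 3 times weekly over 2 weeks according to the labels. The methods of the study describe these injections as daily and the harvest of skin as 1 week after the last. The age at harvest is not stated. In kidney, 3 SARAWT and 2 SARATg libraries followed vehicle, and 3 SARAWT and 1 SARATg libraries followed aristolochic acid (AA) at 5 mg/kg, given intraperitoneally 3 times weekly over 3 weeks. The Cre is driven by the Pdgfrb promoter from before birth, and the study describes the promoter as active in leukocytes too, so the sort does not isolate pericytes. The labels do not say how many animals a library holds, so that p-values measure the spread between libraries.

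TGF-β is secreted in an inactive form, wrapped in the propeptide it is cut from. LTBP1, LTBP3 and LTBP4 bind that latent complex and store it in the extracellular matrix, whereas LTBP2 does not bind it and lies on elastic fibre microfibrils, and GARP holds the complex on the surface of regulatory T cells, platelets and endothelial cells. Integrins and proteases then free the ligand, which is known in skin and kidney as a driver of matrix production by fibroblasts and mural cells.

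All 8 genes are protein coding, and their positions in GRCm38 are as follows. Tgfb1 is at chr7:25687002-25705077 on the forward strand, Tgfb2 at chr1:186622792-186705989 on the reverse strand and Tgfb3 at chr12:86056745-86079041 on the reverse strand. Ltbp1 is at chr17:75005568-75392512, forward, Ltbp2 at chr12:84783212-84876532, reverse, Ltbp3 at chr19:5740904-5758532, forward, and Ltbp4 at chr7:27305136-27337692, reverse. Lrrc32 is at chr7:98489283-98502181 on the forward strand. Tgfb3 overlaps Ttll5, which lies on the opposite strand.

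Library totals ranged from 3355217 to 137093834 UMIs, and the shallowest, SARAWT PBS library 2 of skin, had a median of 1105 UMIs per barcode. A class was given to a cell only where at least 3 of its markers were present and no other class came within 2 markers of it, which placed 53.6% to 80.8% of kept cells in skin and 87.5% to 95.6% in kidney. Cells were gated on these markers, so finding them in a class does not check the gate. Ebf2, a mural marker, was at 0 CPM in mural cells of kidney. In skin, 11 of 12 stromal and 10 of 12 mural markers were highest in their own class. The stromal exception was Cthrc1, at 181 CPM in stromal cells and 239 CPM in another class, pooled over libraries. Stromal and mural cells together made up only 2.38% to 21.8% of kept cells in skin and 0.0189% to 0.938% in kidney. Leukocytes made up 26.5% to 69.7% and 10.9% to 83.1%. Between 7.38% and 55.5% of barcodes in the 4 skin libraries with the longer gene list were also found in another skin library. The highest share was in SARAWT PBS 2, at 469 of 845 barcodes. SARAWT PBS 1 had 7.38%, and SARAWT bleomycin 1 and 2 had 17.6% and 22.1%. Zfyve9, the gene that encodes SARA, went against the labels in 3 libraries. It was at 621 CPM in the library labelled SARAWT PBS 3 (314 and 224 CPM in the SARATg skin libraries, 7.75 to 26.0 CPM in the other 5), at 164 CPM in the kidney library labelled SARAWT AA 1, and at only 20.6 CPM in the one labelled SARATg AA 1 (100 and 96.4 CPM in SARATg vehicle, 10.5 to 32.1 CPM in the other 5). The kidney library labelled SARAWT vehicle 3 also stood apart, with 47.7% T cells and 13.5% proximal tubule cells, against 3.84% and 4.04% T cells and 79.9% and 74.6% proximal tubule cells in vehicle 1 and 2.

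**Figure D1:**
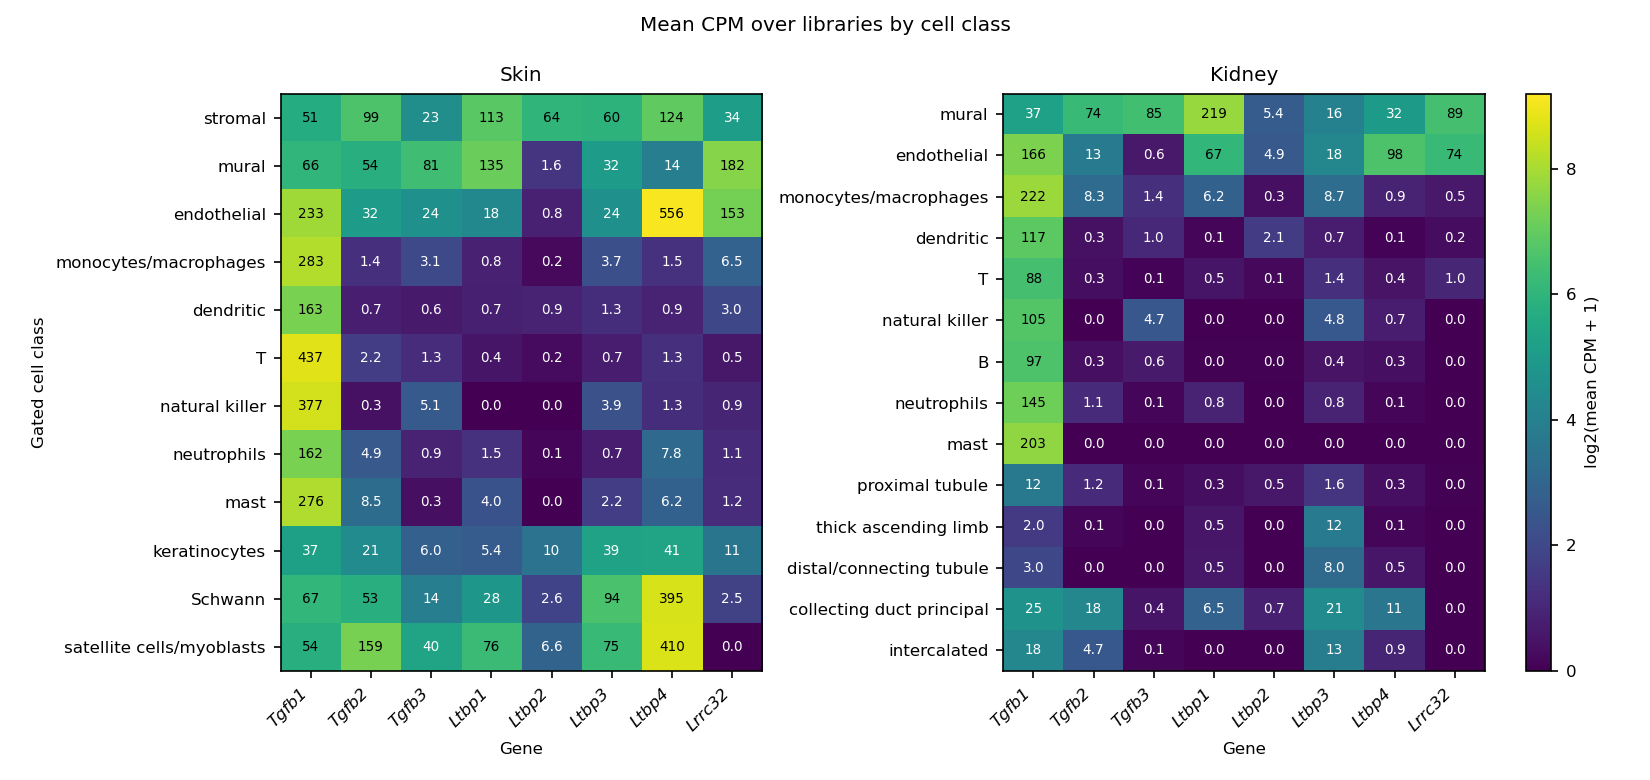
Mean level of each member (columns) in each gated cell class (rows) of skin and kidney, coloured as log2(mean CPM + 1) with the mean CPM printed, over libraries of all treatments with at least 10 cells and for classes with at least 2 such libraries. In skin Tgfb1 lies in the leukocyte and endothelial rows, Ltbp4 in the endothelial, satellite and Schwann rows, Lrrc32 in the mural and endothelial rows (182 and 153 CPM), Tgfb2 in the satellite and stromal rows (159 and 99 CPM), Ltbp1 in the mural and stromal rows (135 and 113 CPM) and Ltbp2 in the stromal row (64 CPM).

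Tgfb1, the ligand made by most leukocytes, was highest in T cells of skin, at 304, 461 and 545 CPM in the lowest, median and highest of 7 libraries. Natural killer cells followed at 285, 399 and 449 CPM (6 libraries), then monocytes and macrophages at 259, 286 and 307 CPM (8 libraries). Stromal cells, gated on 12 markers such as Pdgfra and Dcn, held 29.1, 50.4 and 73.4 CPM, and mural cells 46.5, 70.8 and 83.2 CPM, so that no stromal or mural library reached the lowest library of these leukocyte classes. Endothelial cells lay with the leukocytes, at 233 ± 85.2 CPM (SD, n = 8), and keratinocytes were lowest of the fitted classes at 36.7 ± 15.8 CPM (SD, n = 8). Monocytes and macrophages held 44.7% of all Tgfb1 UMIs of a skin library on average, T cells 12.6%, and stromal cells 4.14% (0.794% to 9.49%).

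In kidney the order of Tgfb1 levels was different at the top. Monocytes and macrophages led with 180, 234 and 267 CPM (lowest, median and highest of 9 libraries), endothelial cells followed with 136, 168 and 187 CPM (8 libraries), and T cells held 64.1, 86.6 and 112 CPM. The difference between monocytes or macrophages and endothelial cells had the same sign in 8 of 8 libraries, at a mean of 0.38 on the log2(CPM + 1) scale. Distal tubule classes were near the floor, at 1.96 CPM in the thick ascending limb and 2.97 CPM in distal convoluted and connecting tubule cells, and principal cells of the collecting duct held 24.8 ± 8.53 CPM (SD, n = 7). Compared across tissues, T cells averaged 437 ± 88.7 CPM in skin (n = 7) and 88.5 ± 17.1 CPM in kidney (n = 9), and the ranges did not overlap. Skin and kidney were separate experiments, so tissue cannot be told apart from whatever else differed between them. The T cell gates also held unlike cells. Pooled over libraries, their marker Trdc was at 1089 CPM in skin and 23.5 CPM in kidney, and Trac at 204 CPM in skin and 605 CPM in kidney.

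Tgfb2, the ligand of mesenchymal and epithelial cells in development, was concentrated in skin in muscle satellite cells and myoblasts (60.6, 112 and 342 CPM over 6 libraries) and in stromal cells (33.3, 98.1 and 205 CPM over 8 libraries). The stromal gate held 59.9% of Tgfb2 UMIs of a skin library on average. Mural cells were at 54.3 ± 18.6 CPM (SD, n = 6) and Schwann cells at 53.0 ± 25.8 CPM (SD, n = 7), and monocytes and macrophages at 1.45 CPM. In kidney Tgfb2 was low in each class with more than 2 libraries, the highest being principal cells of the collecting duct at 18.2 ± 22.7 CPM (SD, n = 7), where 24 of the 38 UMIs came from vehicle 1 and 2.

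Tgfb3, the third ligand, was highest in mural cells of skin, at 19.4, 80.5 and 121 CPM over 6 libraries, and stromal cells held 15.5, 22.7 and 34.4 CPM over 8. Satellite cells and myoblasts lay between them at 40.1 ± 6.75 CPM (SD, n = 6). In kidney only 266 UMIs of Tgfb3 were counted over 9 libraries, and the 2 libraries with at least 10 mural cells held 20.5 CPM (1 UMI) and 150 CPM (14 UMIs) there.

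Ltbp1, the binding protein that fixes latent TGF-β to matrix, followed the same cells. In skin, mural cells held 48.6, 142 and 212 CPM (6 libraries) and stromal cells 56.6, 120 and 157 CPM (8 libraries), ranges that overlap almost fully. The stromal gate held 73.4% of Ltbp1 UMIs on average and not under 50.9% in any library. In kidney, endothelial cells held 24.7, 57.6 and 173 CPM (8 libraries), and the next class with enough libraries, collecting duct principal cells, was lower in 7 of 7. The 2 kidney libraries with mural cells were at 245 CPM (12 UMIs) and 193 CPM (18 UMIs).

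Ltbp2 was the member most restricted to one class of skin. Stromal cells held 19.7, 44.0 and 167 CPM (8 libraries) and 79.6% of Ltbp2 UMIs on average, and keratinocytes, next in order, held 2.94, 6.57 and 23.3 CPM, lower than stromal cells in 8 of 8 libraries. In kidney Ltbp2 had 312 UMIs in all, of which 69 lay in endothelial cells of SARATg vehicle 2 (37.9 CPM); the other 7 kidney libraries with at least 10 endothelial cells held 0 or 1 Ltbp2 UMI there.

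Ltbp3 was spread more evenly. Schwann cells of skin held 54.7, 90.2 and 129 CPM (7 libraries), satellite cells and myoblasts 32.6, 79.3 and 107 CPM (6), and stromal cells 37.1, 54.7 and 104 CPM (8), ranges that overlap. In kidney Ltbp3 reached 20.6 ± 6.54 CPM (SD, n = 7) in collecting duct principal cells and 18.0 ± 7.60 CPM (SD, n = 8) in endothelial cells.

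Ltbp4, which also takes part in elastic fibre assembly, was highest on average in endothelial cells of both tissues, among classes with at least 2 libraries. In skin these held 149, 565 and 920 CPM (8 libraries), satellite cells and myoblasts 129, 366 and 789 CPM (6) and Schwann cells 230, 409 and 577 CPM (7), all ranges that overlap. Stromal cells were lower than Schwann cells in 7 of 7 libraries, by 2.13 on the log2(CPM + 1) scale. They nonetheless held 43.2% of the Ltbp4 UMIs of a skin library on average. Mural cells held only 14.4 ± 13.1 CPM (SD, n = 6). In kidney, endothelial cells held 49.4, 103 and 145 CPM (8 libraries) and 53.3% of Ltbp4 UMIs on average. Only SARATg vehicle 2 had at least 10 stromal cells in kidney, and these were at 150 CPM (42 UMIs in 42 cells), above the highest endothelial library.

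Lrrc32 had its highest levels in vascular classes. Mural cells of skin held 107, 188 and 269 CPM (6 libraries), endothelial cells 38.6, 140 and 296 CPM (8), and stromal cells 13.3, 27.9 and 67.5 CPM (8). Its UMIs lay mostly elsewhere in skin: stromal cells held 44.5% of them in a library on average and monocytes and macrophages 19.5%, against 10.2% in endothelial and 7.52% in mural cells. Kidney endothelial cells held 40.8, 64.9 and 124 CPM (8 libraries), and 60.8% of Lrrc32 UMIs on average lay in them. Kidney T cells held 19.0% on average (median 6.36%, highest 86.5%), though their level was low. T cells as a class were at 0.504 CPM in skin and 0.991 CPM in kidney.

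GARP is known from regulatory T cells, so gated T cells were divided by whether they held a UMI of Foxp3, the transcription factor of that lineage. In kidney the Foxp3-holding cells (16 to 370 per library) were at 7.27 CPM of Lrrc32 in SARAWT vehicle 3, at 4.39, 11 and 16.6 CPM in SARAWT AA 1, 2 and 3, at 10.7 and 0 CPM in SARATg vehicle 1 and 2, and at 8.82 CPM in SARATg AA 1. The remaining T cells of the same libraries held 0 to 1.01 CPM. Lrrc32 was higher in Foxp3-holding cells in 6 of 7 libraries, by a mean of 2.33 on the log2(CPM + 1) scale (SD 1.33), with p = 0.03125 in an exact two-sided sign-flip permutation test, whose smallest possible value is 0.015625. The exception, SARATg vehicle 2, had 16 such cells, in which 0 UMIs allow a level of up to 78.7 CPM. The levels are small, and with 10 CPM added in place of 1 the difference was 0.76 (p = 0.03125 in the same exact test). The p-value became 0.0625 when any library but that one was left out, where the smallest possible value is 0.03125. In skin only 2 libraries had at least 10 Foxp3-holding cells, with 0 and 1 UMI of Lrrc32. The smallest possible value of the exact test is 0.5 with 2 libraries, so it could not detect a difference there.

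For the order of levels, an exact two-sided sign-flip permutation test compared neighbouring classes within libraries. Of 82 neighbouring pairs in skin and 88 in kidney, 0 passed after Benjamini-Hochberg adjustment (lowest adjusted p 0.183 and 0.138), while 12 and 10 had an unadjusted p under 0.05. The steps named above with every library on one side are among these, and for the remaining neighbours the order is not given beyond their spread. The smallest possible p of such an exact test is 0.015625 with 7 libraries and 0.03125 with 6. Adjusted over 82 or 88 pairs, this left little room to pass, so the count of 0 does not say that neighbours are alike.

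The first comparison asked whether bleomycin changed these genes in skin of SARAWT mice. In stromal cells Ltbp2 was higher and Ltbp4 lower after bleomycin, in endothelial cells Lrrc32 was lower, and in monocytes and macrophages the small level of Tgfb3 was higher, all without overlap between the 3 PBS and 3 bleomycin libraries. None passed the main test, edgeR's quasi-likelihood test on UMIs summed per library and class with Benjamini-Hochberg adjustment over all genes. How many of all genes separated without overlap was not counted. Lack of overlap, here and below, is therefore a description of the values and not a trait particular to these members. Of the 80 pairs of member and class, 35 had counts enough to be tested. Of these 0 passed in either direction, beside 0.432% of all genes called over these 10 fits. Before adjustment, 7 pairs had a p under 0.05 in edgeR. In the fits that hold these 7, so did 2432 of 10772 genes in stromal cells and 395 of 2860 in endothelial cells. The counts were 1088 of 11635 in monocytes and macrophages, 1382 of 5441 in Schwann cells and 639 of 3197 in satellite cells and myoblasts. Tgfb1 was tested in 9 of 10 classes, Ltbp4 in 6, Tgfb2 and Ltbp3 in 5 each, Lrrc32 in 4, Ltbp1 in 3, Tgfb3 in 2 and Ltbp2 in 1. DESeq2 called 6 of the pairs, beside 2.33% of all genes it tested.

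**Figure D2:**
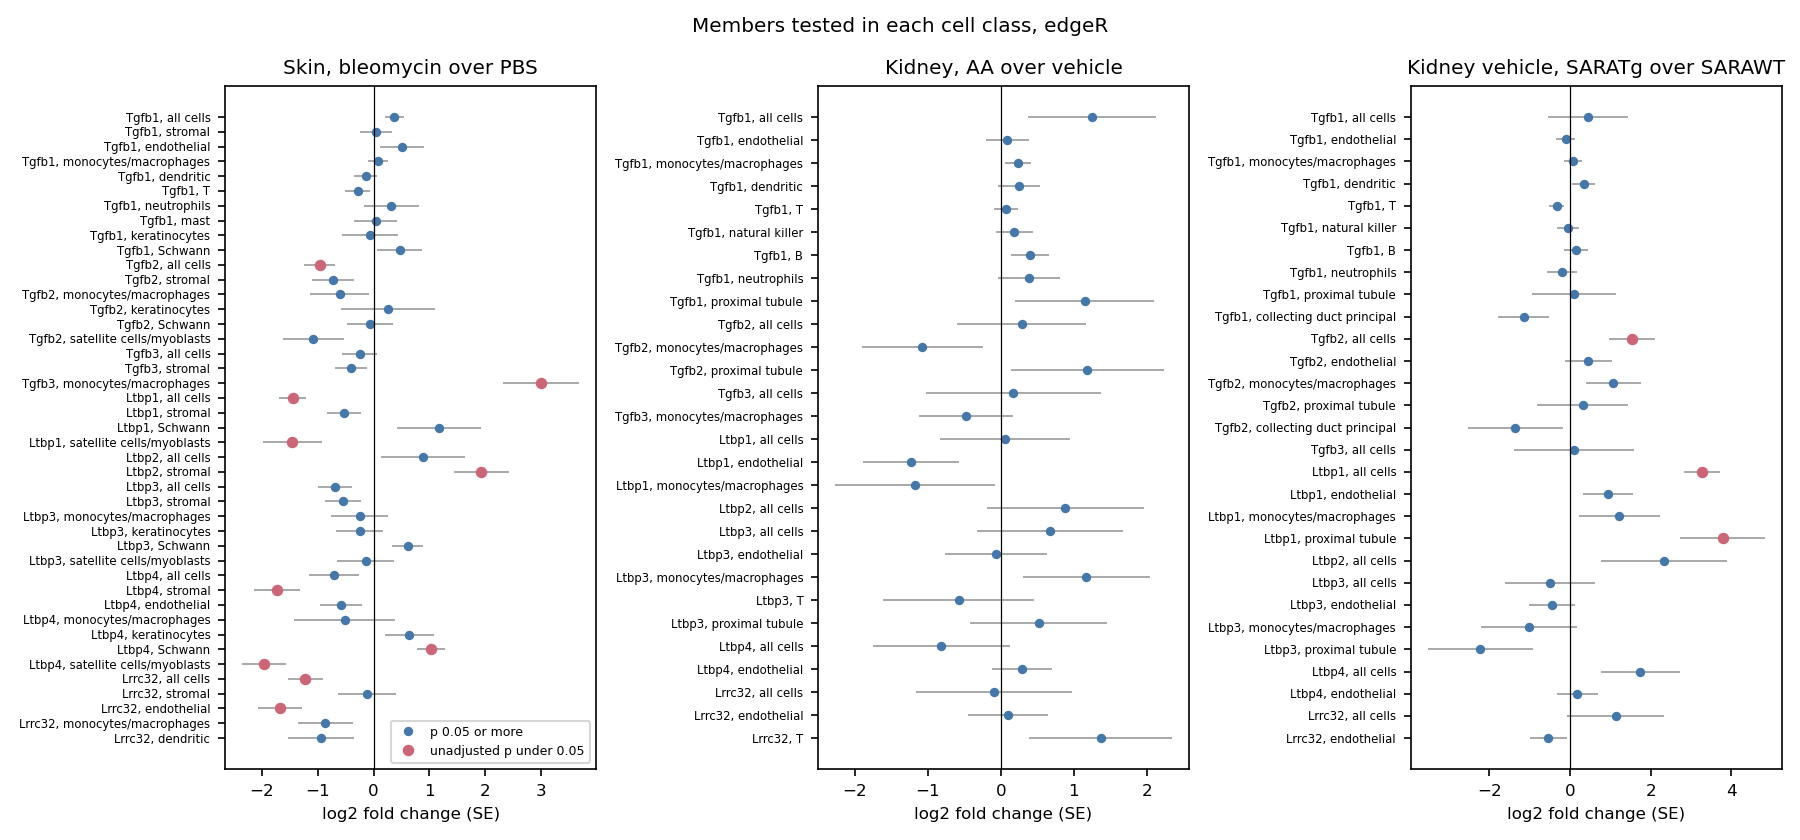
Log2 fold change (x axis) with its standard error for each member and cell class tested (y axis), by edgeR, in skin (bleomycin over PBS, SARAWT), kidney (AA over vehicle, SARAWT) and kidney vehicle (SARATg over SARAWT). Red points had an unadjusted p under 0.05 and blue points did not; none passed the adjusted threshold.

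Stromal Ltbp2 stood at 19.7, 41.0 and 25.2 CPM in the 3 PBS libraries and at 167, 91.1 and 46.9 CPM in the 3 bleomycin libraries. The groups did not overlap, and the lowest bleomycin library lay close above the highest PBS library. Bleomycin over PBS, the log2 fold change was 1.93 (SE 0.50), with an adjusted p of 0.0837 in edgeR, in a fit that called 0.576% of 10772 genes (0.362% higher and 0.214% lower). DESeq2 gave 1.91 and an adjusted p of 0.00306, beside 6.91% of genes called, and over 16 alternatives the adjusted p ran from 0.00253 to 0.280. The ratio of bleomycin to PBS was 4.26 within the longer gene list (2 libraries each) and 1.86 within the shorter (1 library each), which adds no test of the direction. SARATg stromal cells were at 33.4 CPM with PBS and 84.6 CPM with bleomycin, 1 library each.

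Stromal Ltbp4 stood at 202, 323 and 114 CPM with PBS and at 34.7, 74.8 and 79.5 CPM with bleomycin. Each bleomycin library lay below each PBS library. This was a log2 fold change of -1.73 (SE 0.42), with an adjusted p of 0.0798 in edgeR and 0.00138 in DESeq2. The replicate numbers paired the stromal libraries, and with the number as a block the adjusted p was 0.0464, beside 6.61% of genes called; over 16 alternatives it ran from 0.00138 to 0.310. Within gene lists the ratio of bleomycin to PBS was 0.209 in the longer and, with 1 library each, 0.700 in the shorter. SARATg stromal cells were at 112 CPM with PBS and 54.3 CPM with bleomycin.

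Within the stromal gate, marker levels moved with treatment. Of its own markers, Pi16, a marker of adventitial fibroblasts, was at 902, 1206 and 318 CPM with PBS and 103, 222 and 38.4 CPM with bleomycin in these cells, and Cthrc1, a marker of matrix-producing fibroblasts, at 23.5, 66.1 and 84.4 CPM and at 465, 209 and 100 CPM. Mfap5, another marker of adventitial fibroblasts, was at 520, 623 and 340 CPM and at 283, 246 and 197 CPM, and the collagen gene Col1a1 at 14994, 18447 and 29366 CPM with PBS and 7206, 12207 and 10467 CPM with bleomycin. Cthrc1 was thus higher with bleomycin while the other 3, Col1a1 among them, were lower, each without overlap. Cells were therefore divided, after these values were seen and with no test, into those with a UMI of Pi16 but none of Cthrc1 and those with Cthrc1 but none of Pi16. A cell of greater depth more often holds either UMI, and the median stromal cell of a library held 1053 to 14103 UMIs with PBS and 1141 to 12555 with bleomycin. These groups hold 10 to 253 cells in a SARAWT library. Pi16 cells were 38.2%, 30.2% and 20.2% of stromal cells with PBS and 14.5%, 19.5% and 6.90% with bleomycin. Cthrc1 cells were 9.95%, 10.1% and 21.6% with PBS and 32.9%, 20.5% and 26.2% with bleomycin, which overlap. Whether the gate held other cells or the same cells at other levels was not tested.

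The level of Ltbp4 was mostly higher in Pi16 cells than in Cthrc1 cells. Pi16 cells held 371, 391 and 152 CPM of Ltbp4 with PBS and 164, 193 and 68.2 CPM with bleomycin, and Cthrc1 cells 70.6, 26.3 and 91.3 CPM with PBS and 17.4, 30.7 and 69.6 CPM with bleomycin. Ltbp4 was thus higher in Pi16 cells than in Cthrc1 cells of the same library in all but bleomycin 3, where the levels were alike. Within Pi16 cells the groups overlapped. Cells with neither marker, 45.9% to 62.8% of SARAWT stromal cells, were at 106, 215 and 110 CPM with PBS and 112, 59.3 and 93.2 CPM with bleomycin, which also overlap. They held more Ltbp4 UMIs than Pi16 cells in PBS 3 (231 against 163), bleomycin 1 (40 against 10) and bleomycin 3 (106 against 10), and so did Cthrc1 cells in bleomycin 1 (34) and bleomycin 3 (79).

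The level of Ltbp2 was higher in Pi16 cells than in Cthrc1 cells in the 3 PBS libraries and bleomycin 3, and lower in bleomycin 1 and 2. Cthrc1 cells held 17.5, 26.3 and 14 CPM of Ltbp2 with PBS and 177, 129 and 27.3 CPM with bleomycin, and Pi16 cells 34.6, 40.5 and 41.1 CPM with PBS and 131, 54.8 and 54.6 CPM with bleomycin. The groups did not overlap in either kind of cell, though in Cthrc1 cells bleomycin 3 lies next to PBS 2, which rests on 1 Ltbp2 UMI in 16 cells, and bleomycin 1 rests on 8 UMIs in 22 Pi16 cells. Cells with neither marker were at 8.68, 20.0 and 27.2 CPM with PBS and 174, 85.0 and 66.8 CPM with bleomycin, also without overlap. In the SARATg libraries Cthrc1 cells were at 4.85 CPM with PBS and 77.4 CPM with bleomycin, and Pi16 cells at 75.4 and 71.8 CPM. The part of the stromal make-up in the difference over the whole gate was not tested.

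**Figure D3:**
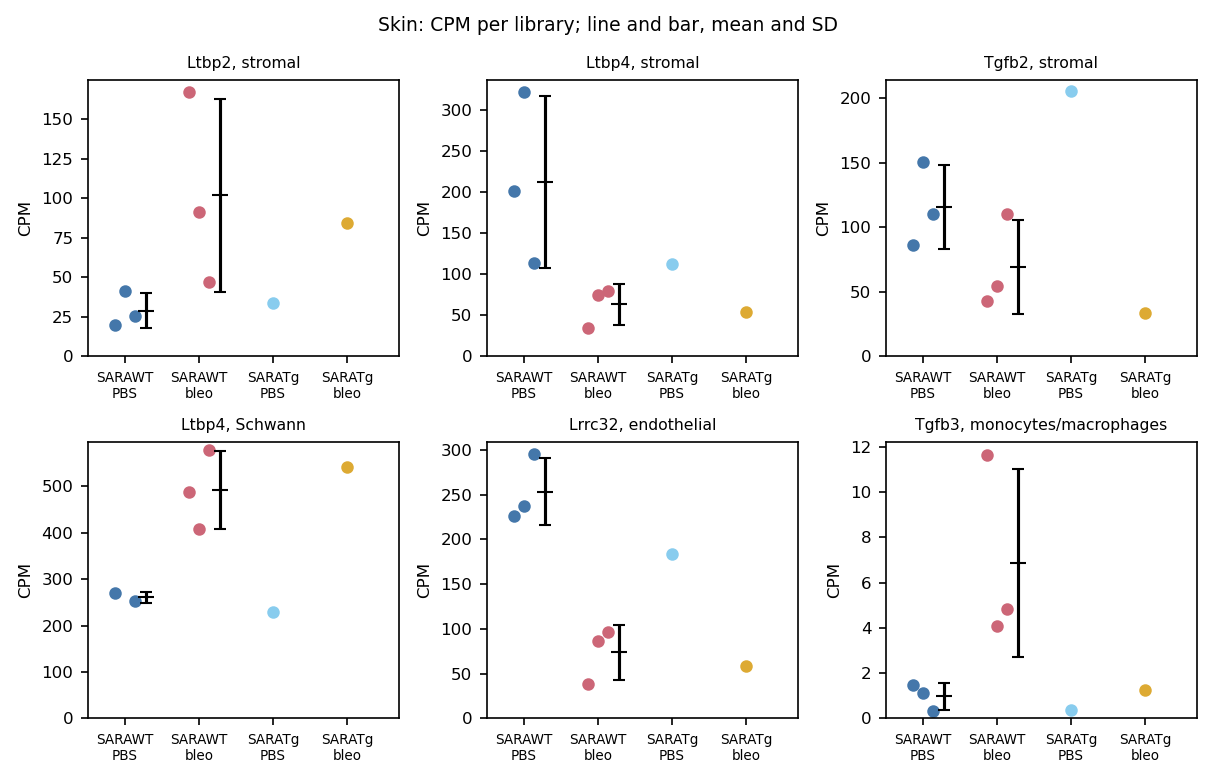
CPM (y axis) of Ltbp2, Ltbp4 and Tgfb2 in stromal cells, Ltbp4 in Schwann cells, Lrrc32 in endothelial cells and Tgfb3 in monocytes and macrophages, one point per skin library and one colour per group (x axis), with the mean and SD where a group has more than 1 library. The SARAWT PBS and bleomycin points are apart in each panel but stromal Tgfb2, where bleomycin 3 at 111 CPM lies among the PBS libraries.

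The other members did not separate in stromal cells. Tgfb2 was at 86.1, 151 and 110 CPM with PBS and 42.5, 54.4 and 111 CPM with bleomycin, a log2 fold change of -0.73 (SE 0.38, adjusted p 0.296 in edgeR). SARATg stromal cells were at 205 CPM of Tgfb2 with PBS and 33.3 CPM with bleomycin, the highest and the lowest of the 8 skin libraries. Tgfb1 (0.05, SE 0.29), Tgfb3 (-0.40, SE 0.28), Ltbp1 (-0.53, SE 0.30), Ltbp3 (-0.55, SE 0.32) and Lrrc32 (-0.12, SE 0.52) all had adjusted p-values of 0.330 or more in edgeR. The median log2 fold change of the 8 members was -0.47, against -0.03 over all genes of the fit.

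Endothelial Lrrc32 stood at 226, 237 and 296 CPM with PBS and at 38.6, 86.5 and 96.1 CPM with bleomycin. Each bleomycin library was far below the lowest PBS library. The bleomycin values rest on 3, 5 and 23 UMIs in 14, 11 and 38 cells, and the 95% Poisson interval of the first, for counting error only, runs from 7.96 to 113 CPM. On the log2 scale the fold change was -1.68 (SE 0.40), with an adjusted p of 0.0865 in edgeR, in a fit that called 0.524% of 2860 genes (0.210% higher and 0.315% lower), and of 0.0435 in DESeq2. Over 15 alternatives the adjusted p ran from 0.0111 to 0.329. SARATg endothelial cells showed 184 CPM with PBS and 58.3 CPM with bleomycin. Summed mural markers, which mark another class high in Lrrc32, were at 99.9 to 636 CPM with PBS and 277 to 476 CPM with bleomycin in these cells, ranges that overlap. Only 10, 2 and 4 of the 12 markers were present with PBS and 3, 1 and 3 with bleomycin, so these sums say little on mural RNA. Ltbp4, the other endothelial member, overlapped between groups (884, 625 and 506 CPM against 412, 675 and 276 CPM).

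Tgfb3 in monocytes and macrophages stood at 1.49, 1.10 and 0.307 CPM with PBS (16, 1 and 4 UMIs) and at 11.6, 4.09 and 4.85 CPM with bleomycin (113, 37 and 98 UMIs). The levels are small, but each bleomycin library was above each PBS library. Their log2 fold change was 3.01 (SE 0.68), with an adjusted p of 0.287 in edgeR, in a fit that called 0.0430% of genes (0.0258% higher and 0.0172% lower), and of 0.00439 in DESeq2. With the replicate number as a block the adjusted p was 0.0471 in edgeR, and over 16 alternatives it ran from 0.00439 to 1. Same-numbered libraries correlated at 0.314, 0.268 and 0.574 in this class, but libraries 1 and 2 also did across numbers (0.233 and 0.132). Pairing by number was not separated from the gene list that libraries 1 and 2 share. Summed stromal markers in these cells, all 12 of which were present in at least 1 library of each group, were at 122 to 307 CPM with PBS and 66.5 to 158 CPM with bleomycin, and mural markers at 11.6 to 25.3 CPM and 14 to 22.4 CPM. In SARATg libraries Tgfb3 was at 0.351 CPM with PBS and 1.27 CPM with bleomycin. These cells held 1.36% to 4.97% of a library's Tgfb3 UMIs with PBS and 54.9%, 29.4% and 31.3% with bleomycin, and 0.768% and 6.07% in the SARATg libraries. Their share of all UMIs was 26.4% to 32.0% with PBS and 34.1% to 41.8% with bleomycin in SARAWT.

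In Schwann cells the values of Ltbp4 differed in the other direction. It stood at 269 and 252 CPM in PBS 1 and 3 (PBS 2 had too few cells) and at 489, 409 and 577 CPM with bleomycin, without overlap. A log2 fold change of 1.03 (SE 0.25) had an adjusted p of 0.0572 in edgeR, where 3.36% of genes were called (1.47% higher and 1.89% lower), and 0.0128 in DESeq2, with a range of 0.00904 to 0.214 over 15 alternatives. The SARATg libraries were at 230 and 542 CPM. Summed stromal markers in this gate were at 8348 and 10938 CPM with PBS and 12892 to 20205 CPM with bleomycin, and their part in the difference was not tested. In satellite cells and myoblasts, by contrast, Ltbp4 stood at 789 and 621 CPM with PBS and at 195 and 186 CPM with bleomycin, a log2 fold change of -1.96 (SE 0.40). Its adjusted p was 0.0533 in edgeR, where 0.469% of genes were called (0.313% lower), 0.0114 in DESeq2 and between 8.09e-04 and 0.143 over 11 alternatives. It was 0.0122, 0.0304 and 0.0262 in edgeR without PBS 3, bleomycin 2 and bleomycin 3 and 0.143 without PBS 1, but each of these fits has 1 library in one group, which is assumed to vary like the other group, and adds no support. The SARATg libraries were at 538 and 129 CPM. These values rest on 11 to 40 cells per SARAWT library.

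Over all kept cells, Ltbp1 was at 41.6, 34.2 and 21.3 CPM with PBS and 12.3, 10.4 and 9.04 CPM with bleomycin, Lrrc32 at 14.5, 20.2 and 16.0 CPM and at 9.39, 5.34 and 4.88 CPM, and Tgfb2 at 25.8, 37.9 and 19.9 CPM and at 13.9, 9.53 and 14.6 CPM. None of the 3 overlapped between groups, and edgeR gave adjusted p-values of 0.0600, 0.111 and 0.135, in a fit that called 0 of 15335 genes (2799 at an unadjusted p under 0.05). DESeq2 called all 3, and 8.64% of genes. For Ltbp1 (log2 fold change -1.45, SE 0.25) the adjusted p was 0.0203 with the replicate block, 0.0192 without SARAWT PBS 3, and between 5.45e-05 and 0.234 over 16 alternatives. Ltbp3, at 28.4, 29.6 and 12.4 CPM with PBS and 14.4, 11.6 and 12.3 CPM with bleomycin, overlapped, and its adjusted p of 0.290 became 0.0374 in edgeR without PBS 3. The share of stromal cells moved alike, at 16.3%, 20.4% and 7.48% of kept cells with PBS and 7.05%, 9.69% and 2.21% with bleomycin, and mural cells at 0.564%, 1.41% and 1.12% and at 0.186%, 0.415% and 0.168%. In such sums fewer cells of a type and less RNA per cell cannot be told apart.

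Tgfb1 was the member tested in the most classes of skin. Its log2 fold changes in the 9 classes ran from -0.29 in T cells (SE 0.23) to 0.51 in endothelial cells (SE 0.39), and adjusted p-values in edgeR were 0.497 or more. Monocytes and macrophages, which held the largest share of its UMIs, were at 290, 289 and 263 CPM with PBS and 259, 283 and 307 CPM with bleomycin, and the SARATg libraries were at 270 and 300 CPM. Their log2 fold change was 0.08 (SE 0.17).

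The wider pathway was read in the same fits. Of 15 latency and activation partners, 12 receptors and Smads and 12 target genes, members of these lists passed in Schwann cells only among the skin fits, where 7 of 27 tested were called beside 3.36% of all genes. The target genes Tgfbi (log2 fold change 2.11, SE 0.32), Pmepa1 (1.51, SE 0.25), Postn (1.32, SE 0.26) and Tagln (2.65, SE 0.47), and the collagenase Mmp14 (1.28, SE 0.26), rose. Itgb8, a subunit of the integrin that frees latent TGF-β, fell from 801 ± 33.5 CPM (SD, n = 2) to 329 ± 2.86 CPM (SD, n = 3), a log2 fold change of -1.18 (SE 0.20), and Zfyve9 also passed (-3.91), its PBS mean resting on the library labelled SARAWT PBS 3. The stromal markers of this gate, given above, were higher in each bleomycin library too, at 43.6% to 51.8% of their level in the stromal cells of the same library against 13.1% and 17.3% with PBS, and their part in these calls was not tested. Adjusted p-values of the 7 were 0.0201 to 0.0358 in edgeR, with 2 PBS libraries, and the 7 calls of the lists fell to 1 without bleomycin 1 or without shared barcodes, and to 2 without the deepest cells. With at least 30 cells per library Schwann cells could not be fitted, since only 1 PBS library was left.

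The second comparison asked the same of aristolochic acid in the kidney of SARAWT mice. Tgfb1 over all kept cells stood at 12.4, 15 and 105 CPM with vehicle and at 134, 62.5 and 137 CPM with AA. Vehicle 3 lay within the AA range, as did its share of leukocytes, which was 10.9%, 13.7% and 76.4% of kept cells with vehicle and 83.1%, 65.5% and 82.9% with AA. The log2 fold change was 1.25 (SE 0.88), with an adjusted p of 0.483 in edgeR. Without vehicle 3 it was 2.87 with an adjusted p of 0.0134, in a fit that then called 33.4% of genes, and over 15 alternatives the adjusted p ran from 0.0134 to 0.820. Within classes the Tgfb1 levels overlapped. Monocytes and macrophages were at 235, 180 and 196 CPM with vehicle and 239, 200 and 267 CPM with AA (log2 fold change 0.23, SE 0.18), endothelial cells at 173, 160 and 176 CPM and at 187 and 163 CPM, and T cells at 99.7, 101 and 79.6 CPM and at 86.6, 74.4 and 107 CPM.

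Proximal tubule cells held little Tgfb1, at 1.96, 1.77 and 16.7 CPM with vehicle and 16.5, 7.27 and 28.7 CPM with AA. The log2 fold change was 1.15 (SE 0.95, adjusted p 0.618 in edgeR), and without vehicle 3 it was 2.92 with an adjusted p of 0.0397 (0.0397 to 0.943 over 15 alternatives), beside 5.56% of genes called. Leukocyte markers moved with it in these same cells. Summed T cell markers were at 24.1, 30.2 and 76.4 CPM with vehicle and 103, 121 and 169 CPM with AA, and macrophage markers at 31.3, 51.5 and 314 CPM and at 322, 105 and 288 CPM, with at least 11 of 12 T cell markers and all 12 macrophage markers present in each library. Their part in the Tgfb1 level was not tested.

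**Figure D4:**
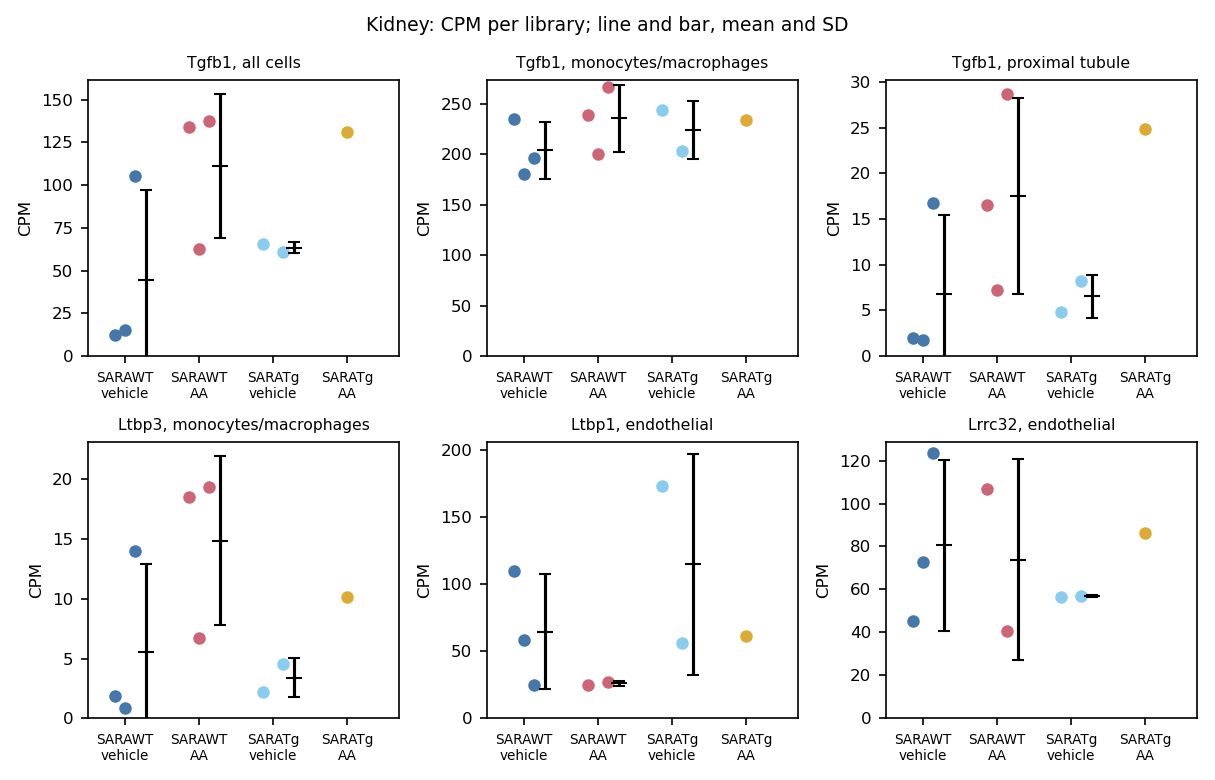
CPM (y axis) of Tgfb1 in all cells, in monocytes and macrophages and in proximal tubule cells, of Ltbp3 in monocytes and macrophages, and of Ltbp1 and Lrrc32 in endothelial cells, one point per kidney library and one colour per group (x axis), with the mean and SD where a group has more than 1 library. One SARAWT vehicle library, vehicle 3, lies with the AA libraries for Tgfb1 in all cells (105 CPM) and in proximal tubule cells (16.7 CPM) and for Ltbp3 (14 CPM).

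Of the 88 pairs of member and class in this comparison, 20 were tested and 0 passed, beside 0.0791% of all genes called. Before adjustment, too, 0 of the 20 had a p under 0.05 in edgeR. DESeq2 also called 0, a count given without the share of all genes it called and not read as a result about the members. Ltbp3 in monocytes and macrophages was at 1.84, 0.861 and 14 CPM with vehicle and 18.5, 6.71 and 19.3 CPM with AA, a log2 fold change of 1.17 (SE 0.87), and without vehicle 3 of 3.70 with an adjusted p of 0.0379 in edgeR (0.0379 to 1 over 14 alternatives), beside 5.48% of genes called. Summed T cell markers in these macrophages moved alike, at 8.28, 16.9 and 103 CPM with vehicle and 113, 91.1 and 134 CPM with AA, with 7 to 12 of 12 markers present, and their part was not tested. Endothelial Lrrc32 overlapped, at 45.3, 72.8 and 124 CPM with vehicle and 107 and 40.8 CPM with AA, as did endothelial Ltbp4, at 93.8, 52.6 and 111 CPM and at 97.6 and 122 CPM. Endothelial Ltbp1 was at 110, 58.6 and 24.7 CPM with vehicle and 24.9 and 27.2 CPM with AA, where AA 2 rests on 2 UMIs and AA 3 had too few cells. Ltbp2 could be tested in none of the 11 classes and Tgfb3 in 1. Ltbp2 over all cells, at most 0.535 CPM in these 6 libraries, passed in 1 of 14 alternatives, without vehicle 3 (log2 fold change 2.89, adjusted p 0.0326 in edgeR, range 0.0326 to 0.917). Over all classes, 195 pairs of pathway gene and class were tested, of which 0 passed in edgeR, 22 were under 0.05 before adjustment, and 1 was called by DESeq2. Of all genes of a fit, those under 0.05 before adjustment ran from 155 of 6697 in dendritic cells to 964 of 4243 in intercalated cells. In monocytes and macrophages they were 841 of 11711.

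The third comparison set SARATg against SARAWT kidneys after vehicle, the only place where the transgene has more than 1 library. Zfyve9 itself was called in 5 of 12 classes, all higher in SARATg, at 86.0 ± 20.7 CPM (SD, n = 2) against 6.58 ± 4.36 CPM (SD, n = 3) in dendritic cells for example. No other gene of the pathway lists passed. Of 96 pairs of member and class 21 were tested and 0 passed, beside 0.181% of all genes called. DESeq2 called 0 of the pairs, again given without its share over the classes and not read as a result about the members. Before adjustment 1 pair had a p under 0.05 in edgeR. It lay in proximal tubule cells, where 375 of 13564 genes had such a p.

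The pair was Ltbp1 in proximal tubule cells, at 0.0846 ± 0.0776 CPM (SD, n = 3) in SARAWT and 0.832 ± 0.230 CPM (SD, n = 2) in SARATg, levels too low to read beyond the values. Summed endothelial markers in these cells were at 4.42, 4.90 and 12.5 CPM in SARAWT and 22.5 and 14.7 CPM in SARATg, also without overlap, with at least 11 of 12 markers present in each library, and their part was not tested. Over all kept cells Ltbp1 stood at 0.922, 1.18 and 1.24 CPM in SARAWT and at 14.5 and 7.97 CPM in SARATg. The SARATg libraries were far above, with a log2 fold change of 3.27 (SE 0.44) and an adjusted p of 0.999 in edgeR, in a fit that called 0 of 16264 genes (467 at an unadjusted p under 0.05), and of 3.04e-07 in DESeq2, beside 0.549% of genes called. In edgeR it was 0.0401 without SARAWT vehicle 3, where 4.72% of genes were called, and over all 14 alternatives it ran from 3.04e-07 to 1. Endothelial cells made up 1.93%, 1.20% and 2.58% of kept cells in SARAWT and 12.9% and 6.94% in SARATg, and within them Ltbp1 was at 110, 58.6 and 24.7 CPM and at 173 and 56.6 CPM, so that the groups overlapped. Tgfb2 over all cells was also higher in both SARATg libraries, at 3.65 and 5.5 CPM against 0.758, 1.68 and 2.10 CPM (adjusted p 0.999 in edgeR).

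Tgfb1 over all cells was at 65.7 and 61.1 CPM in SARATg, between the SARAWT libraries, with a log2 fold change of 0.44 (SE 1.0); without vehicle 3 it was 2.14, with an adjusted p of 0.0369 in edgeR (0.0369 to 1 over 14 alternatives). It did not separate by genotype in monocytes and macrophages, at 235, 180 and 196 CPM in SARAWT and 244 and 203 CPM in SARATg. T cells were at 99.7, 101 and 79.6 CPM and at 71.6 and 64.1 CPM, lower in both SARATg libraries, with a log2 fold change of -0.33 (SE 0.18) and an adjusted p of 0.789 in edgeR. In B cells SARATg was at 104 and 105 CPM, above 88.7, 77.9 and 33.5 CPM, with a log2 fold change of only 0.16 (SE 0.30, adjusted p 0.858 in edgeR). Lrrc32 in endothelial cells was at 56.5 and 57.1 CPM, within the SARAWT range.

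The genes most like each member were found by Pearson correlation over 25 class means of both tissues, on log2(mean CPM + 1), among 14212 genes. The points share libraries and depth, and the values are a description. Tgfb1 was most like Zc3hav1 (0.89), Akap13 (0.89) and Ppp1r18 (0.88). For Tgfb2 the first was another member, Ltbp1 (0.92), followed by Mxra7 (0.90). Tgfb3 was most like Gm16133 (0.89), Prelp (0.88) and Kirrel (0.87), and Ltbp1 most like Cald1 (0.96), Tgfb1i1 (0.94) and Bgn (0.93).

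Among the remaining members, Ltbp2 was most like Gli3 (0.90), Fbln1 (0.90) and Mfap2 (0.88), of which Fbln1 and Mfap2 encode elastic fibre proteins. Ltbp3 was most like P3h4 (0.94), Clstn1 (0.90) and Rbfox2 (0.89). Ltbp4 was most like Hspg2 (0.94), the gene of the basement membrane proteoglycan perlecan, Adamts7 (0.92) and Fibin (0.92), and Lrrc32 most like Meox2 (0.92), Foxc2 (0.91) and Apold1 (0.91).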

How the data were processed

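Single-cell libraries (10x 3′ v3) of sorted GFP+ cells were used, 8 from skin and 9 from kidney. The deposited matrices hold UMI counts per gene and barcode, filtered by the authors with Cell Ranger. The file headers name versions 4.0.0, 3.1.0 and 3.0.2, while the submitters' processing notes name Cell Ranger 3.0.2, Seurat 2.3.4 and mm10. There were 2 gene lists (32286 and 31053 genes), joined by Ensembl identifier to 30406 genes, which held at least 99.4% of UMIs. The counting of sense and antisense reads was not given in the sources used here.

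Barcodes were retained as cells from 200 detected genes upwards, provided that mitochondrial UMIs made up no more than 20%. A marker counted where it had at least 1 UMI and exceeded 0.3 times the share expected from the library mean. A cell took the class with at least 3 such markers and a margin of 2. No doublet caller was run. Cells without the margin of 2 stayed unassigned, but an assigned cell could still hold markers of another class. The median skin Schwann cell held 3 markers of its next class. An alternative left out the 5% deepest cells. UMIs were summed per library and class (at least 10 cells, at least 2 libraries per group) and fitted with edgeR 4.0.16 (R 4.3.3) by its two-sided quasi-likelihood test, after filterByExpr and TMM scaling, with Benjamini-Hochberg adjustment over all genes of a fit and a threshold of 0.05, after a test on simulated counts. SE is the size of the log2 fold change divided by the square root of F. Skin SARATg libraries and the kidney SARATg AA library, 1 per group, entered no test. Stromal and mural classes could not be compared in kidney, nor mural cells in skin. Exact sign-flip tests used log2(CPM + 1) differences within libraries.

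The named genes were all 8 members, pathway genes that passed (at most 5 per direction and fit), up to 3 most alike genes per member, and gate markers; some items are not reported here. Zfyve9 was given as a check of the labels. Members, lists and tests were chosen with earlier results of these data known. Alternatives were DESeq2 1.42.0, other normalization, filters, gates and cell minimums, a replicate block, a gene list covariate and leaving out each library; where that left 1 library in a group, it was assumed to vary like the other group.

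Same-numbered skin libraries deviated together, with correlations of 0.184 to 0.342 for the 3 pairs in stromal cells, 0.268 to 0.574 in monocytes and macrophages and 0.129 to 0.527 over all cells; the labels give no source for this pairing. Libraries 1 and 2 share the longer gene list, and their different-numbered pairs gave -0.0694 and 0.0486 in stromal cells, but 0.132 and 0.233 in monocytes and macrophages and 0.187 and 0.213 over all cells; different-numbered pairs with library 3 were all below 0 in these 3. Intervals and floors (3 UMIs) cover counting error only, and precision is limited by the 2 or 3 libraries of a group. Gene positions are from GENCODE M21.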

Additional observations from a re-analysis of the deposited data

Results flagged for a closer look

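In skin, 3 members differed one way in the SARAWT libraries and had a ratio on the other side of 1 in the SARATg pair. That pair is 1 library per treatment, so the difference was not tested. For Ltbp3 and Lrrc32 the SARATg ratio was close to 1, which is little or no change. These cases were picked by searching all members and classes, and how many of all genes would meet the same rule was not counted. PBS 3, which enters here as SARAWT by its label, held Zfyve9 at 621 CPM, above the SARATg libraries at 314 and 224 CPM. Ltbp1 in Schwann cells was at 0 and 21.3 CPM with PBS and 22.1 to 32.2 CPM with bleomycin in SARAWT, while the ratio of bleomycin to PBS in SARATg was 0.664. For Ltbp3 in Schwann cells SARAWT was at 54.7 and 77.0 CPM with PBS and 83.9 to 102 CPM with bleomycin, which did not pass the test, and the SARATg ratio was 0.941; stromal markers in this gate, given above, moved with treatment. Over all cells Lrrc32 was lower with bleomycin in SARAWT, and the SARATg ratio was 1.05 (10.1 and 10.5 CPM).

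Lrrc32 in keratinocytes of the SARATg bleomycin library, which entered no test, was at 28.4 CPM (108 UMIs), above the 4 PBS libraries at 1.83 to 7.61 CPM. The SARAWT bleomycin libraries were at 9.30, 19.3 and 10.6 CPM on 2, 9 and 8 UMIs.

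Ltbp4 had fold changes of opposite sign between classes of skin under bleomycin, none of which passed the test, with log2 values of -1.73 in stromal cells, 1.03 in Schwann cells and -1.96 in satellite cells and myoblasts. Within libraries that held both, the log2 ratio of Schwann to stromal Ltbp4 averaged 0.78 with PBS (n = 2) and 3.04 with bleomycin (n = 3). These ratios were chosen because the fold changes already differed in sign, and they are a description with no test.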

How the results depend on the processing

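For pairs of member and class in skin, 0 were called by edgeR, and 6 with DESeq2, 6 with no filter on low counts, 3 with the replicate block, 2 with the gene list as covariate and 0 to 1 without each replicate; the other settings also gave 0. In the kidney treatment comparison the count of 0 became 1 with no filter and 0 to 2 without each replicate, and in the kidney genotype comparison 1 with no filter. Pathway list calls in skin (7) became 26 with DESeq2, 40 with no filter, 19 with the replicate block, 20 with the gene list covariate, 2 without the 5% deepest cells, 1 without shared barcodes, and 1 to 10 without each replicate; with at least 30 cells the count was 1, but Schwann cells, which held all 7, could not be fitted there. In the kidney treatment comparison (0) they became 1 with DESeq2, 10 with no filter and 0 to 10 without each replicate, and for genotype (5) they became 9 with DESeq2, 15 with no filter, 14 with the block, 3 with at least 30 cells, where dendritic and collecting duct principal cells could not be fitted, and 3 to 7 without each replicate. The share of all genes called is not set beside each of these counts. Where it is given above for skin, with DESeq2 and with the replicate block, it was higher than in the main fits too. The counts are therefore not read as a result about the members or the lists. The Foxp3 difference of Lrrc32 ran from 2.13 to 2.79 without each replicate and was 0.76 with 10 CPM added. Single members were followed over the alternatives only where the main edgeR fit gave an unadjusted p under 0.05 or some alternative called them. This choice favours passing, and some of the fits have 1 library in a group. Of 275 such values 37 passed the threshold and 1 reversed: Tgfb1 over all kidney cells by genotype, 0.44 on the log2 scale, ran from -0.00954 without vehicle 2 to 2.14 without vehicle 3. The cause was not tested. Kidney numbers did not pair the libraries by treatment, with same-numbered correlations of -0.379, 0.417 and 0.306 over all cells. By genotype they were 0.213 and 0.181, but with only 2 SARATg libraries, whose deviations mirror each other, pairing was not settled. With the block, Tgfb1 and Ltbp1 over all cells passed by genotype (adjusted p 0.0459 and 0.0484 in edgeR). So did Ltbp4 in Schwann cells of skin with 2 pairs (0.0229 in edgeR). The block changed no other member call than these and those given above. Pairs called only with no filter rest on few UMIs or on 1 library. Classes with 10 to 40 cells per library limit what could be detected.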
